A study of Sorghum bicolor with 12 samples.

Results

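The genes described here are the abundant transcripts of the sweet sorghum stem whose level stayed in a narrow range in every group measured. They number 27 of the 30901 genes that had a row of their own in both parts of the deposited table. They were chosen by their measured values: at least 100 FPKM (fragment counts corrected for transcript length and sequencing depth) in all 7 columns, and a highest value at most 1.5 times the lowest within each part. The study sampled CSH22SS, a hybrid sweet sorghum grown in an open field, taking its middle internode at Booting, Milky stage and Physiological Maturity. It also took booting internodes labelled Ds1, Ds2 and Ds3, and the header over their columns names water-limiting conditions. No label spells out Ds, says whether its numbers are times or severities, or gives the age of the plants. Each of the 6 groups had 2 libraries, which the authors combined into 1 FPKM value. One part of the table is developmental, with the 3 stages from booting to maturity. The other is the water-limiting part, where booting is repeated beside the Ds groups. Both parts therefore use the same booting libraries. Replicate error cannot be known from single values, so no difference below was tested and all values are descriptions.

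Genes that every cell needs for making and turning over proteins, moving membranes and keeping up energy metabolism tend to vary less between tissues than genes of specialised functions. Transcripts that are both abundant and steady are the usual candidates for reference genes, against which other genes are measured in PCR assays. A sweet sorghum stem stores sucrose while its panicle forms, fills grain and ripens, and drought changes the transcripts of many stem genes, so a reference for this tissue has to be checked over stages and water supply. The deposited table gives gene IDs only, and 0 of the 27 IDs matched the RefSeq gene table of assembly NCBIv3. No product name, role, position or sequence is therefore given for any gene, and the tissue label was not checked against marker genes. By the chromosome number that sorghum IDs carry, 6 of the 27 lay on chromosome 1, 4 each on chromosomes 7, 9 and 10, 3 on chromosome 2, 2 each on chromosomes 3 and 5, and 1 each on chromosomes 4 and 6. None carried the number of chromosome 8, which had 11 of the 268 genes that met the level minimum alone. Chromosomes 1 to 7 had 48, 38, 37, 24, 6, 18 and 25 of these 268, and chromosomes 9 and 10 had 29 and 32. Whether any chromosome held more or fewer members than its share was not tested. The 54 nearest neighbours of the 27 genes in ID order were taken among the 30901 genes with a row of their own in both parts. Genes in rows naming several genes were passed over. Of the 54, 0 reached 100 FPKM in all columns, a level that 0.867% of the 30901 genes reached. Under 10 FPKM in every column were 29 of these neighbours, or 53.7%, against 65.1% of all genes.

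Among the 268 genes that met the level minimum, the members were moderately abundant rather than extreme. Among all 30901 genes they ranked between 41 and 829 over the 7 columns. Their mean over the 7 columns ranged from 125 to 577 FPKM, with a median of 171, against 270 over the 268 genes. In developmental booting they read between 121 and 655 FPKM, with a median of 186, and in Ds1 between 111 and 557 FPKM, with a median of 165. Of the 27, 5 read 200 FPKM or more in all columns, and 9 read under 200 FPKM in all of them. The same counts were not made for the 268 genes. In internode tissue measured in bulk, fewer cells of a type and less RNA per cell cannot be told apart, so a steady value describes the tissue and not its cells.

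**Figure D1:**
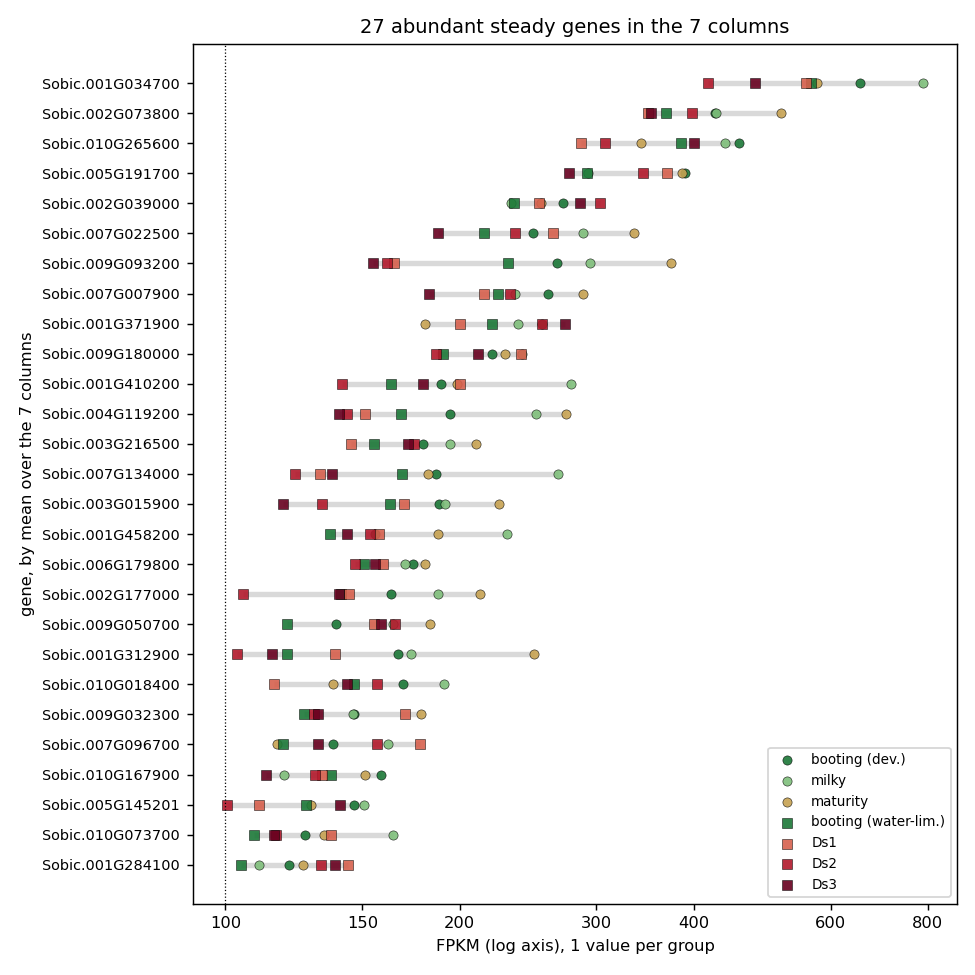
FPKM (log axis) of the 27 genes in the 7 columns, 1 point per group value, with circles for the developmental part and squares for the water-limiting part. Genes are ordered by their mean, from Sobic.001G034700 at 577 FPKM to Sobic.001G284100 at 125 FPKM, and the dotted line is the minimum of 100 FPKM.

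The most abundant member was Sobic.001G034700, which read 655, 788 and 576 FPKM in booting, milky and maturity. Its water-limiting values were 566 FPKM for booting and 557, 417 and 479 for Ds1, Ds2 and Ds3. Milky was its highest developmental value, and all 3 Ds values lay below booting. Sobic.002G073800 read 426, 428 and 518 FPKM in booting, milky and maturity, and 368, 349, 398 and 353 in booting, Ds1, Ds2 and Ds3. It combined a high level with little movement, since its ratios of highest to lowest were 1.22 and 1.14 in the 2 parts. Sobic.010G265600 read 457, 439 and 342 FPKM over development, and 386, 286, 308 and 401 under booting, Ds1, Ds2 and Ds3. Its lowest developmental value was at maturity, and in the water-limiting part Ds1 and Ds2 lay below booting while Ds3 lay just above it. Sobic.005G191700 read 390, 292 and 387 FPKM, a dip at milky, and 292, 370, 344 and 277 in the water-limiting part. Its booting value thus differed between the parts, although the libraries were the same.

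The next members by mean level lay between 217 and 262 FPKM. Sobic.002G039000 read 272, 233 and 255 FPKM over development, and 235, 253, 303 and 286 in booting, Ds1, Ds2 and Ds3. Sobic.007G022500 read 249, 289 and 336 FPKM, and 215, 264, 236 and 188. The former had its 3 Ds values above booting, and the latter had its highest values at maturity and in Ds1. Sobic.009G093200 read 267, 295 and 375 FPKM over development and 231, 165, 161 and 155 in the water-limiting part. Its maturity value was 1.40 times booting, whereas booting was 1.49 times Ds3, so it stood high at maturity and low in all Ds groups. Sobic.007G007900 read 260, 236 and 288 FPKM, and 224, 215, 232 and 182, with ratios of 1.22 and 1.27. Sobic.001G371900 read 255, 238 and 181 FPKM, and 220, 200, 255 and 273, so maturity and Ds3 lay at opposite ends of its range. Sobic.009G180000 read 220, 241 and 229 FPKM over development, a ratio of 1.09, and 190, 240, 187 and 212 in the water-limiting part, a ratio of 1.29.

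The member that moved least was Sobic.006G179800. It read 174, 170 and 180 FPKM over development, a highest-to-lowest ratio of 1.06, and 151, 159, 147 and 156 FPKM in booting, Ds1, Ds2 and Ds3, a ratio of 1.09. It was the only member with both ratios at most 1.2, and 7 members had both at most 1.3. The others were Sobic.003G216500, Sobic.002G073800, Sobic.007G007900, Sobic.009G180000, Sobic.002G039000 and Sobic.010G073700. Sobic.003G216500 read 179, 194 and 210 FPKM over development and 155, 145, 175 and 172 in the water-limiting part, with ratios of 1.17 and 1.20. Sobic.010G073700 read 127, 164 and 134 FPKM, and 109, 137, 116 and 115, with a milky value above the other stages and a Ds1 value above the other water-limiting columns. Next in order of the larger ratio came Sobic.010G167900, at 1.33, which read 159, 119 and 151 FPKM, and 137, 133, 130 and 113. After Sobic.005G191700, at 1.34, followed Sobic.009G032300, at 1.35, which read 146, 146 and 178 FPKM, and 126, 170, 130 and 132. The larger ratio of Sobic.010G167900 came from a low milky value, and that of Sobic.009G032300 from a high Ds1 value.

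At the other end, 10 members had a ratio over 1.4 in at least 1 part, and Sobic.001G410200 and Sobic.009G093200 had it in both. Sobic.001G458200 read 156, 230 and 188 FPKM over development, a ratio of 1.48, but 137, 157, 153 and 143 FPKM in booting, Ds1, Ds2 and Ds3, a ratio of 1.15. Sobic.004G119200 read 194, 251 and 274 FPKM, a ratio of 1.41, and 168, 151, 143 and 140, a ratio of 1.20. Both kept closer to booting in the Ds groups than in the later stages. Sobic.003G015900 showed the reverse, with 188, 191 and 225 FPKM over development, a ratio of 1.19, and 163, 170, 133 and 118 in the water-limiting part, a ratio of 1.43. Sobic.001G410200 read 189, 278 and 198 FPKM, and 164, 200, 141 and 180, and Sobic.007G134000 read 186, 268 and 182 FPKM, and 169, 132, 123 and 137. Milky was the highest developmental value of both, with maturity close to booting.

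The remaining members read between 101 and 250 FPKM. Sobic.001G312900 read 167, 173 and 250 FPKM and 120, 138, 103 and 115. Sobic.002G177000 read 163, 188 and 212 FPKM and 141, 144, 105 and 140. Both had maturity as their highest developmental value and Ds2 as their lowest water-limiting value. Sobic.009G050700 read 139, 164 and 183 FPKM and 120, 155, 165 and 158. Sobic.010G018400 read 169, 191 and 137 FPKM and 146, 116, 157 and 143. The first had its 3 Ds values above booting, and the second had its lowest values at maturity and in Ds1. Sobic.007G096700 read 137, 162 and 117 FPKM and 119, 178, 157 and 131. Sobic.005G145201 read 146, 151 and 129 FPKM and 127, 111, 101 and 140, and Sobic.001G284100 read 121, 111 and 126 FPKM and 105, 144, 133 and 138. These 3 differed in direction: Ds1 was the highest water-limiting value of Sobic.007G096700 and Sobic.001G284100, whereas Sobic.005G145201 had its highest in Ds3.

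The bounds cut through a continuous spread. Nearest inside the ratio bound were Sobic.001G312900 at 1.496 in the developmental part and Sobic.007G096700 at 1.4997 in the water-limiting part. Nearest outside were Sobic.006G062500 at 1.501 in the developmental part and Sobic.009G190800 at 1.506 in the water-limiting part. Sobic.006G062500 read 187, 280 and 194 FPKM over development, yet its water-limiting values of 161, 166, 160 and 173 FPKM, a ratio of 1.08, were as close together as those of the steadiest member. At the level bound, Sobic.005G145201 had a lowest value of 101 FPKM and Sobic.006G220900, just outside, had 98.6. Sobic.003G246700, with a lowest value of 97.6 FPKM, read 99.0, 97.6, 97.9 and 102 FPKM in the water-limiting part, a ratio of 1.04.

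Most abundant genes were not steady by this rule. Of the 268 genes at 100 FPKM or more in all columns, 27 were within 1.5 in both parts, which is 10.1%. In the developmental part alone 128 were, or 47.8%, and in the water-limiting part alone 60 were, or 22.4%. The 27 are thus 21.1% of the genes within the bound over development, near the 22.4% of all 268 within it in the water-limiting part. They are 45.0% of those within it in the water-limiting part, near the 47.8% of all 268 within it over development. The water-limiting ratio spans 4 columns and the developmental ratio 3, so the same bound is stricter there. The median ratio over the 268 genes was 1.51 in the developmental part and 1.93 in the water-limiting part, and over the members, bounded by the rule, it was 1.33 and 1.36.

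**Figure D2:**
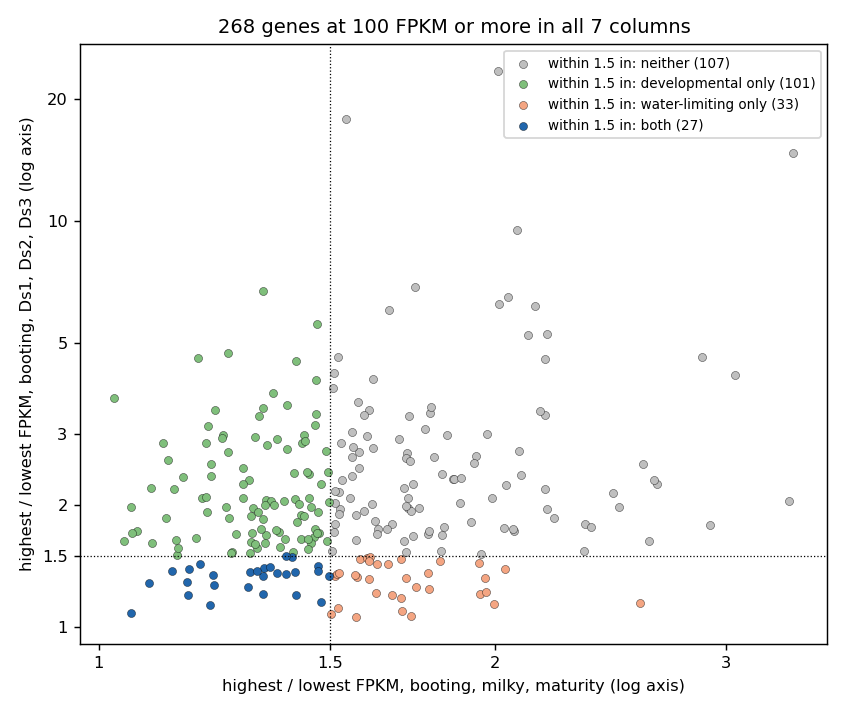
Highest over lowest FPKM (log axes) in the developmental part against the water-limiting part, 1 point for each of the 268 genes at 100 FPKM or more in all 7 columns, with dotted lines at the bound of 1.5. The 27 members fill the lower left corner, 101 genes were within the bound over development only, 33 in the water-limiting part only and 107 in neither.

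The genes with the highest levels lay outside. The 5 most abundant of the 268 were Sobic.002G324200, Sobic.001G141300, Sobic.001G012500, Sobic.005G228700 and Sobic.001G154100, with means between 2548 and 8772 FPKM. Sobic.002G324200 read 10017, 7928 and 13635 FPKM over development and 8654, 9865, 6285 and 5023 in the water-limiting part, with ratios of 1.72 and 1.96. Sobic.001G141300 read 1703 FPKM in booting and 30465 in Ds1. Members had a median level of 171 FPKM, against 286 for the 101 genes within the bound over development only, 189 for the 33 within it in the water-limiting part only and 343 for the 107 within it in neither. Genes within both bounds were most frequent at middle levels when grouped by their mean over the 7 columns, without the level minimum. That mean comes from the same values as the ratios, so a high value in 1 column also moves a gene to a higher class. Likewise, a gene that varies and still meets the minimum in all columns has a higher mean. These levels and shares therefore do not show that steadiness depends on level. Both ratios were at most 1.5 in 16.2% of 3327 genes with a mean of 20 to 50 FPKM, 8.52% of 493 genes at 100 to 200 FPKM, 3.91% of 230 genes at 200 to 500 FPKM and 1.37% of 73 genes at 500 FPKM and over. At 1 to 10 FPKM the share was 6.46% of 7372 genes. The gene in the top class was Sobic.001G034700.

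**Figure D3:**
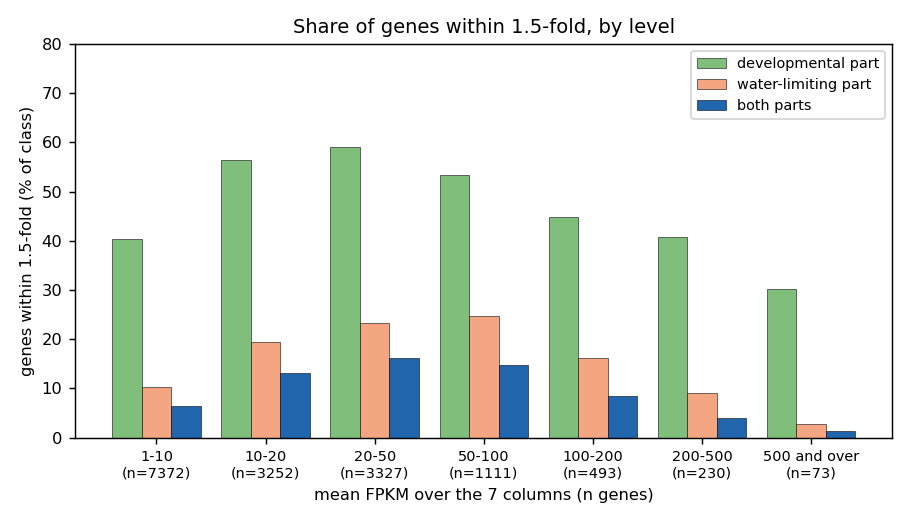
Percent of genes whose highest FPKM was at most 1.5 times the lowest, by mean FPKM over the 7 columns, for the developmental part, the water-limiting part and both. The share for both parts is highest at 20 to 50 FPKM, 16.2%, and lowest at 500 FPKM and over, 1.37%. The mean and the ratios come from the same values, so a gene that varies can change class by its own variation.

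Across the conditions the members' small differences had no common direction on the deposited scale. In milky 18 of 27 read above booting, with a median log2 ratio of 0.11, and in maturity 17 did, with a median of 0.07. In Ds1, Ds2 and Ds3, 15, 14 and 14 read above booting, with medians of 0.06, 0.04 and 0.05. As shares, these were 66.7%, 63.0%, 55.6%, 51.9% and 51.9% of the members, against 52.6%, 64.2%, 56.0%, 43.7% and 43.7% of the 268 abundant genes, so maturity and Ds1 lay at the background. The milky and the 3 Ds medians turned negative under quantile normalization, at -0.09, -0.36, -0.11 and -0.06. Over the 268 abundant genes the 5 medians on the deposited scale were 0.06, 0.11, 0.08, -0.17 and -0.14, in the same order. The rule holds each member within 0.58 of booting on this scale. Neither the range of the members nor how near their medians lay to booting is therefore a result. Ds1 was the highest water-limiting value of 13 members, 48.1% against 40.7% of the abundant genes, and booting of 5, 18.5% against 34.3%. Ds2 was the highest of 6 members, 22.2% against 10.4%, and Ds3 of 3, 11.1% against 14.6%. Maturity was the highest developmental value of 13 members, 48.1% against 42.5% of the abundant genes, milky of 9, 33.3% against 41.0%, and booting of 5, 18.5% against 16.4%. All 3 Ds values lay above booting for 7 members and below it for 5, with 15 mixed, on the deposited scale. The same counts were not made for the abundant genes, so these have no background to be read against. With a constant total per column, however, all 27 lay below booting in all 3 Ds groups. That scaling moves every gene of a column by 1 factor: the median log2 ratio over expressed genes became -1.06, -0.72 and -0.60 in Ds1, Ds2 and Ds3.

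On the deposited scale the 5 members below booting in every Ds group were Sobic.001G034700, Sobic.004G119200, Sobic.007G134000, Sobic.009G093200 and Sobic.010G167900. The 7 above booting in every Ds group were Sobic.001G284100, Sobic.001G458200, Sobic.002G039000, Sobic.007G096700, Sobic.009G032300, Sobic.009G050700 and Sobic.010G073700. Both lists depend on the scale. By the median of ratios Sobic.001G034700 lay above booting in Ds1, at a log2 ratio of 0.089. On that scale Sobic.010G167900 lay above booting in Ds1 and Ds2, at 0.073 and 0.056. With a constant total per column the 7 lay below booting in every Ds group. The largest deposited log2 ratio in Ds1 was 0.58, at Sobic.007G096700, and the most negative in Ds3 was -0.58, at Sobic.009G093200.

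Which column kept other abundant genes out was examined by not asking 1 group at a time to be steady, with the level minimum kept. Without milky the rule held for 56 genes and without maturity for 46. Without Ds1 it held for 49, without Ds3 for 42 and without Ds2 for 36. Without both booting columns it held for 79 genes, the largest number, although this setting takes a column from each part. In pairs of groups, 237 of the 268 abundant genes lay within 1.5-fold between maturity and booting and 197 between milky and booting. For Ds1, Ds2 and Ds3 against booting the numbers were 145, 125 and 133, while it was 164 between maturity and milky, 180 between Ds2 and Ds1, 141 between Ds3 and Ds1 and 245 between Ds3 and Ds2.

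The booting libraries were read in both parts, a comparison that the rule did not use. The water-limiting part gave members a median of 0.864 times their developmental value, the same ratio as over the 268 abundant genes. Of the 27 members 24 lay within 0.02 of the median over 14379 expressed genes, which was 0.863, as did 87.7% of the abundant genes and 69.7% of the expressed genes. The other 3 were Sobic.001G312900, with 167 FPKM in one part and 120 in the other, a ratio of 0.720, Sobic.005G191700, with 390 and 292, a ratio of 0.749, and Sobic.007G134000, with 186 and 169, a ratio of 0.906. With the water-limiting part divided by 0.863, the median over expressed genes, 14 of the 27 members stayed within 1.5 over all 7 columns. Sobic.006G179800 had the lowest such ratio, 1.09, followed by Sobic.003G216500 at 1.25, Sobic.002G073800 at 1.28 and Sobic.009G180000 at 1.29. The highest were 2.09 for Sobic.009G093200 and 2.08 for Sobic.001G312900, which were high at maturity and low in a Ds group.

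The rank of a gene and the ratio of a pair of members do not change when a whole column is multiplied by the same factor. Quantile normalization does change pair ratios. Ranks and pair ratios both come from the FPKM values that chose the members and are given as description. By rank among the 30901 genes, members had a median of 345 in developmental booting and 320 at both later stages. In the water-limiting part the median rank was 331 in booting and 461, 362 and 347 in Ds1, Ds2 and Ds3, so more genes read above the members in Ds1 than in booting. Sobic.001G034700 lay between rank 41 and 96, Sobic.009G180000 between 223 and 300, and Sobic.010G073700 between 477 and 592. Sobic.009G093200 ranged from rank 125 at maturity to 461 in Ds1.

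For each of the 351 pairs of members the log2 ratio was taken in every column, and its SD over groups was computed around the mean of each part. The median SD was 0.26 and the range 0.09 to 0.46, where the rule bounds both genes of each pair. Over the 35778 pairs of the 268 abundant genes the median was 0.57. The steadiest pair was Sobic.001G458200 over Sobic.010G073700, whose ratio ran from 1.23 to 1.40 over development and from 1.15 to 1.32 in the water-limiting part. Both members of this pair had milky as their highest developmental value and Ds1 as their highest water-limiting value, so their ratio moved less than either gene did. The ratio of Sobic.002G073800 to Sobic.003G216500 ran from 2.20 to 2.47 and from 2.06 to 2.41, with an SD of 0.10. Averaged over its 26 pairs, Sobic.006G179800 had the lowest SD, 0.20, then Sobic.009G180000 with 0.22 and Sobic.002G073800 with 0.22. Sobic.001G371900 and Sobic.010G265600 had the highest, both 0.32. The pair that moved most was Sobic.007G096700 over Sobic.009G093200, from 0.311 to 0.549 over development and from 0.514 to 1.08 in the water-limiting part.

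**Figure D4:**
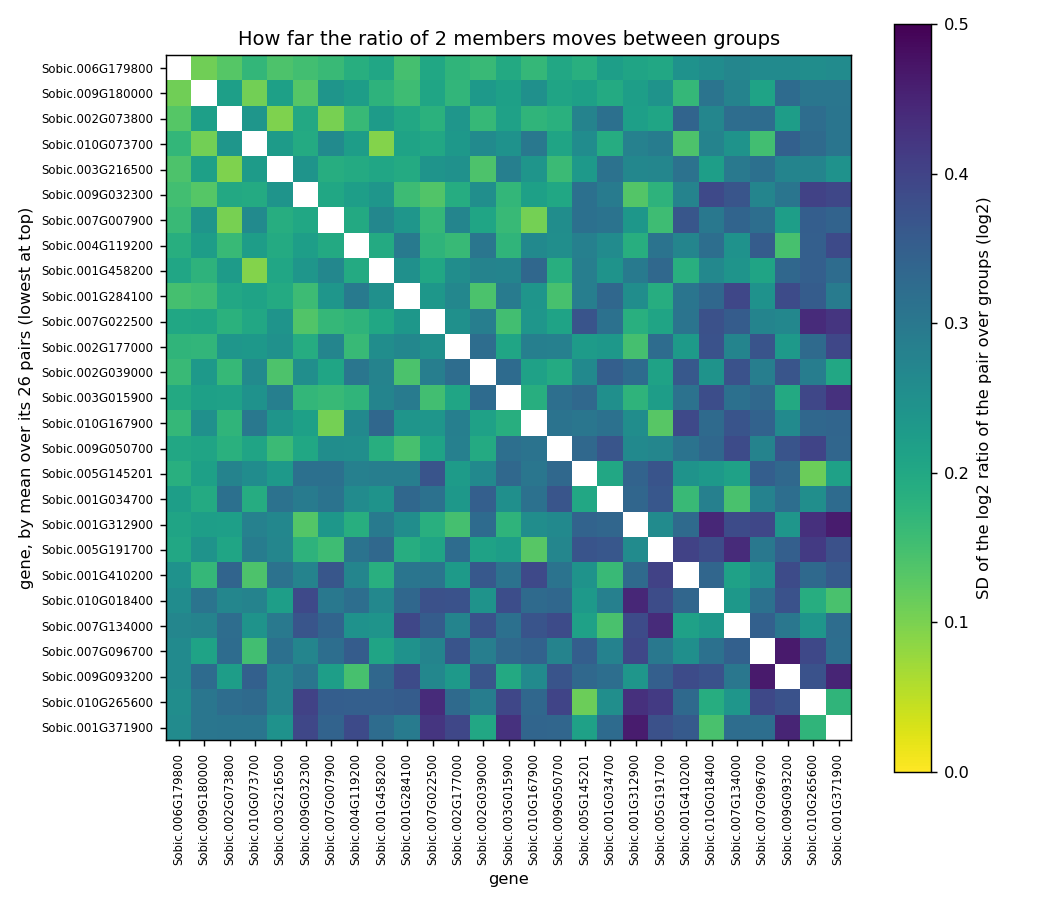
SD of the log2 ratio of each pair of members over the groups, computed around the mean of each part, with genes ordered by their mean over 26 pairs. Light cells mark pairs whose ratio hardly moved, down to 0.09, and dark cells pairs whose ratio moved most, up to 0.46, gathered toward the lower right.

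Steadiness also depends on what each column is scaled to. The 27 genes held 1.11% of all FPKM in the second booting column but 0.615%, 0.755% and 0.800% in the Ds groups in order, where the column totals, booting first, were 477138, 885374, 682190 and 647608 FPKM. In Ds1 the 10 highest rows held 29.8% of the total, against 6.51% in booting. With every column of a part set to the same total, a choice made after seeing the data, all 27 read below booting in Ds1, with a median log2 ratio of -0.83, where the median over expressed genes was -1.06. On that scale 7 of the 27 stayed within the rule. Scaling by the median of ratios kept 22 and quantile normalization kept 17. On the deposited scale the median over expressed genes was -0.17, -0.20 and -0.16 in Ds1, Ds2 and Ds3. The members' medians there were 0.06, 0.04 and 0.05. The rule bounds each member within 0.58 of booting on this scale, which draws their medians toward booting. Their distance from the median over expressed genes is therefore not a result. With quantile normalization the members' median in Ds1 was -0.36 and that over expressed genes -0.19.

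The rule held for 3 genes as deposited and under all 3 rescalings: Sobic.009G032300, Sobic.009G180000 and Sobic.010G073700. Sobic.009G180000 had water-limiting ratios of 1.29 as deposited, 1.36 by the median of ratios, 1.17 by quantiles and 1.47 at a constant total, with developmental ratios between 1.05 and 1.11. The corresponding water-limiting ratios were 1.35, 1.46, 1.06 and 1.39 for Sobic.009G032300, and 1.26, 1.36, 1.06 and 1.48 for Sobic.010G073700. Sobic.006G179800, the steadiest as deposited, kept ratios of 1.14 and 1.26 in the water-limiting part under the first 2 rescalings and reached 1.75 at a constant total, with Ds1 0.81 below booting on the log2 scale.

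**Figure D5:**
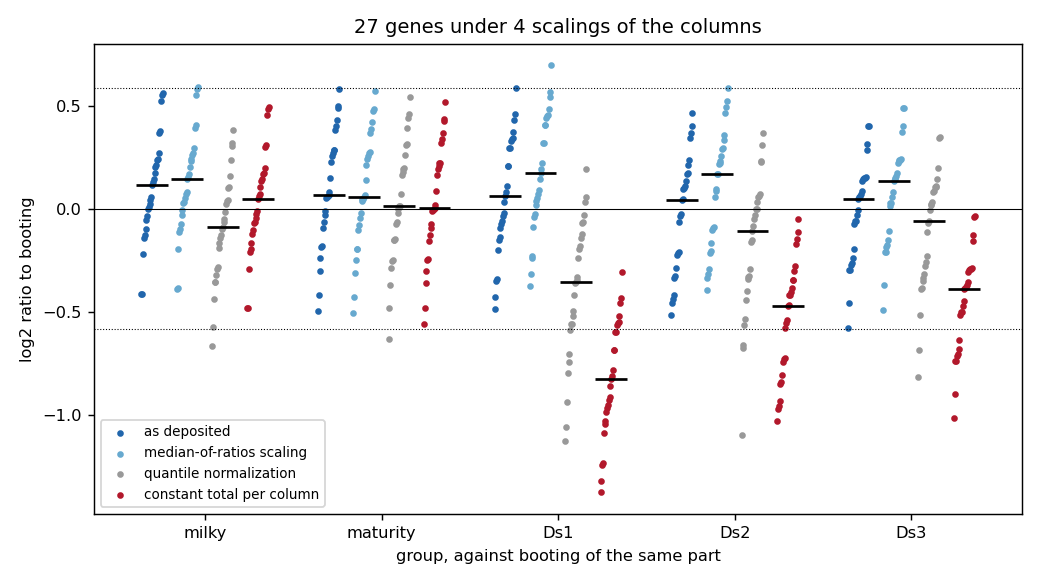
Log2 ratio of each of the 27 genes to booting of the same part, for 5 groups under 4 scalings of the columns, with a bar at the median and dotted lines at 1.5-fold. As deposited the medians lie between 0.04 and 0.11, and at a constant total per column the Ds medians are -0.83, -0.47 and -0.39.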

How the data were processed

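RNA of 12 libraries of middle internode, 2 per group, was measured by RNA sequencing after a modified Trizol extraction and a TruSeq Stranded Total RNA kit, per the labels' protocols. The submitters' processing notes name Cuffdiff, Bowtie2 2.2.9, HISAT2 2.0.5 and cutadapt 1.8.1, without role or setting. A genome build was not given in the sources used here. The authors deposited FPKM, 1 value per group, in 2 parts (34458 and 34718 rows) that were scaled separately, so ratios were taken within a part. The second booting column is likewise the authors' deposited FPKM. Read depth is unknown, and no interval or floor can be given.

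Genes named alone in 1 row of each part were used, which leaves out the 1262 developmental rows naming several genes. Whether reads of near-identical copies were split was not stated. The members, thresholds and lists were chosen with earlier results of these data known. Intended lists by product name, promoter motifs and protein lengths could not be filled, because no ID matched the RefSeq table. Named were the 10 highest and 10 steadiest members, the genes next to each bound, and the 5 most abundant non-members; the other members are listed for completeness. Expressed genes averaged 1 FPKM or more in each part. Median-of-ratios factors used rows at 1 FPKM or more in all columns of a part. Pair SDs pool both parts on 5 degrees of freedom. pandas 2.3.3 and numpy 2.4.6 under Python 3.11.15 were used, and the code was tested on simulated data.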

Additional observations from a re-analysis of the deposited data

How the results depend on the processing

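The number of members depends on the bounds. It was 135 at a minimum of 50 FPKM, 5 at 200 FPKM and 1698 with no minimum, 7 at a ratio of 1.3 and 133 at a ratio of 2. It was 79 without booting asked to be steady, 56 without milky, 46 without maturity, 49 without Ds1 and 42 without Ds3, all including the 27. A pseudocount of 1 gave 28, and 1 ratio over 7 columns on a common scale gave 20, of which 14 were members. Median-of-ratios scaling gave 28 genes, quantile normalization 41 and a constant total per column 32; 13 genes passed as deposited and under the first 2, and 3 under all. Keeping rows that name several genes gave 27.

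The members' median ratio in the developmental part was 1.31 by the median of ratios, 1.31 by quantiles and 1.29 at a constant total. In the water-limiting part it was 1.43 by quantiles and 1.86 at a constant total. The median log2 ratios to booting in milky, maturity, Ds1, Ds2 and Ds3 were 0.14, 0.055, 0.17, 0.17 and 0.14 by the median of ratios. By quantiles they were -0.092, 0.011, -0.36, -0.11 and -0.058, and at a constant total 0.046, 0.0051, -0.83, -0.47 and -0.39. The signs of the milky median and of the 3 Ds medians thus depend on the scaling. Alternatives chosen after seeing the data were the constant total and the counts over several scalings. Other settings for product lists, motifs and protein length were not run, since no ID could be matched. No paired analysis was possible because each group has 1 combined value, and for the same reason no library could be left out.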
